A study of Arabidopsis thaliana with 32 samples.

Results

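Of the 37336 genes in the files, 10 that belong to the folding machinery of the endoplasmic reticulum (ER) and to the unfolded protein response (UPR) were followed in Arabidopsis seedlings under sulfur (S) deficiency. The chaperones were the Hsp70 proteins BIP1 (AT5G28540), BIP2 (AT5G42020) and BIP3 (AT1G09080) and the Hsp90-like SHD (AT4G24190). The lectin chaperones were CNX1 (AT5G61790) and CRT1a (AT1G56340), and the disulfide isomerase was PDIL1-1 (AT1G21750). The partners of BiP were ERDJ3B (AT3G62600) and SDF2 (AT2G25110), and the transcription factor was bZIP60 (AT1G42990). The group was chosen by measured values of these libraries, the CPM across all groups (counts per 1000000 counts) and in particular the fall of BIP3 in S-deficient roots. The response to S deficiency in roots is therefore given as a description with no test. All 10 genes passed the filter on low counts in shoots, in roots and over both tissues, and they are described in every comparison.

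Messenger RNA was counted by 3′RNA-seq, which tags each transcript near its poly(A) end, in 32 libraries. WT was the Col-0 ecotype, and q-lsu-KO was a single Col-0 line in which all 4 LSU genes, named for their response to low sulfur, are deleted. Seedlings of both genotypes spent 10 days with 1 mM sulfate (8 h light and 16 h dark), then 5 days either with sulfate as before, written [nS], or without MgSO4, replaced by MgCl2, written [dS]. Shoots and roots were harvested on day 15 from at least 10 seedlings a library, with 4 libraries in each of 8 groups.

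Proteins of the secretory pathway fold in the ER, where BiP holds unfolded chains, J-domain partners such as ERDJ3B deliver clients to it, and calnexin and calreticulin retain unfinished glycoproteins. Disulfide isomerases such as PDIL1-1 form and reshuffle bonds between cysteines, the sulfur amino acid. When unfolded chains pile up, the RNase IRE1 splices the bZIP60 messenger and the membrane-bound factors bZIP28 and bZIP17 are cut free, and these factors switch on chaperone genes, BIP3 being a widely used marker of this response. The 3′ counts measure the amount of bZIP60 messenger and not its splicing.

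The stretches upstream of the genes are shown because the factors of the UPR act through short promoter elements. In windows of 300 bases that end at the annotated gene start (RefSeq annotation of TAIR10.1, read from the genome), both strands were searched for ERSE (CCAAT and CACG with 9 bases between them), ERSE-II (ATTGG and CCACG with 1 base between them), the UPRE core TGACGTG and, by its name, the plant UPRE-II. The first of these drops a C of the usual ERSE, which reads CCAAT, 9 bases and CCACG, so its matches do not stand for that element. The usual spelling, and the wider form with 10 bases between CCAAT and CACG that includes it, were added after the sequences had been seen. The UPRE core was found upstream of 3 of the 10 genes (PDIL1-1, CRT1a and SHD) and of 3.16% of all 27443 windows. The ERSE with 10 bases was found upstream of 4 of the 10 (BIP3 with 2 copies, PDIL1-1, CRT1a and SHD) and of 0.747% of all windows, and it overlapped no UPRE core in them. The usual ERSE, a subset of these, was found upstream of SHD alone among the 10 and of 0.332% of all windows. CCAAT and CACG with 9 bases between them, ERSE-II and UPRE-II matched none of the 10, and they matched 0.146%, 0.0656% and 0% of all windows. The windows of BIP1, BIP2, CNX1, ERDJ3B, SDF2 and bZIP60 held none of these letters, which says nothing of the factors. The 4 windows with a match are printed 5′ to 3′ along the gene with the matched letters in capitals, and that of bZIP60 is added because bZIP60 was the 1 of the 10 genes called between genotypes.
BIP3 chr1:2931851-2932150, minus strand: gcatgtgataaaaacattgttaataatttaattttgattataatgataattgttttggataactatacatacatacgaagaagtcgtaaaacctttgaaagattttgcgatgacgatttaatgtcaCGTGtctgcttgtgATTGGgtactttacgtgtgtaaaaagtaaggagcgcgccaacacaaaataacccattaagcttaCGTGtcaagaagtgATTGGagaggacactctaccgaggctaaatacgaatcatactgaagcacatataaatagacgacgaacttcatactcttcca
PDIL1-1 chr1:7645310-7645609, plus strand: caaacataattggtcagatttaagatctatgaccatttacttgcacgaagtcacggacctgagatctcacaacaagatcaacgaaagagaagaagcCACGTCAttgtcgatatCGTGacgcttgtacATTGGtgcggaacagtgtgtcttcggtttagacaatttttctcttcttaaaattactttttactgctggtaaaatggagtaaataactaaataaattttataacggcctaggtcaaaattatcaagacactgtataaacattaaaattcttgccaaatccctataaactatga
CRT1a chr1:21092710-21093009, minus strand: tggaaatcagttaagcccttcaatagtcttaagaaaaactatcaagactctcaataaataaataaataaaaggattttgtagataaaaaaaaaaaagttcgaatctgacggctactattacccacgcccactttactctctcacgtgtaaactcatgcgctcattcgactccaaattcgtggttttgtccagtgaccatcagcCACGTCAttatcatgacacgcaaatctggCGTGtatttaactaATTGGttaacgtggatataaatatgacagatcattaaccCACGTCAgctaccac
SHD chr4:12556059-12556358, minus strand: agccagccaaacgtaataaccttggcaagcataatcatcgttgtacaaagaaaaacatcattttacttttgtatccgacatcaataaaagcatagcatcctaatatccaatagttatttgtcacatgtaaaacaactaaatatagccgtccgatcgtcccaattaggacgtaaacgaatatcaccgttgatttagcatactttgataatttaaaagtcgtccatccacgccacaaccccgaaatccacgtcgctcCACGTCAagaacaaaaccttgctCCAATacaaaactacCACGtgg
bZIP60 chr1:16137464-16137763, minus strand: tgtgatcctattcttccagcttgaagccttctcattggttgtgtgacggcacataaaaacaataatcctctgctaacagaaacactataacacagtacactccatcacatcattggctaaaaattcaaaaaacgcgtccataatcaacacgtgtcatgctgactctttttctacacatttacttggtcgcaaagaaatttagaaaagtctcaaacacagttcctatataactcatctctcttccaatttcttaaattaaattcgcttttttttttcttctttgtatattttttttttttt

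The copies in BIP3 read CGTG, 10 bases and ATTGG along the gene, and they end 156 and 78 bases before the annotated start. In PDIL1-1 and CRT1a the ERSE lay on the same strand as in BIP3, and in SHD on the other one. The map of motif positions shows that the matches lay within 204 bases of the start. A match of letters is a description and was not tested as a binding site.

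**Figure D1:**
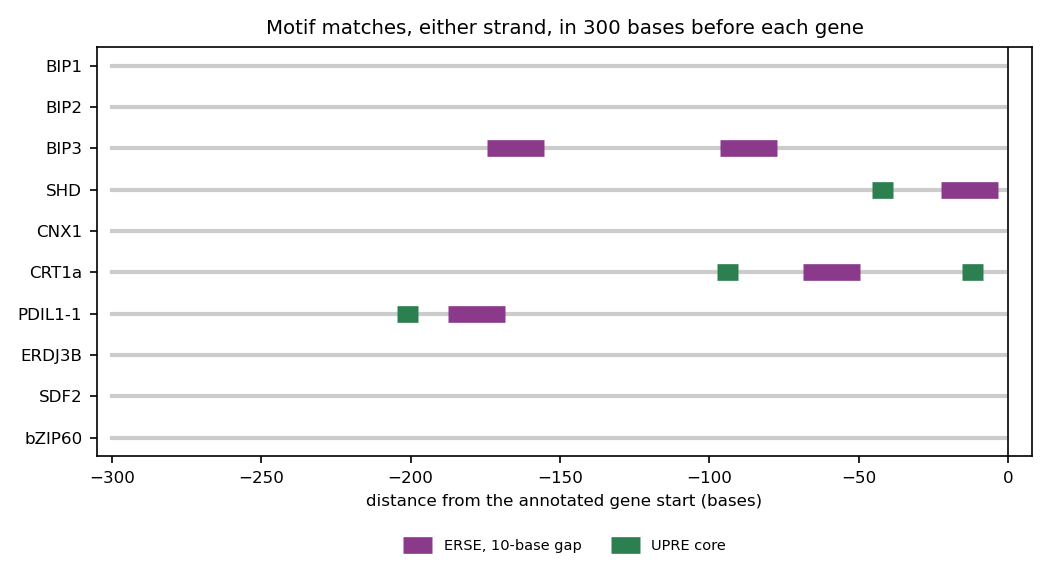
Positions of motif matches (coloured bars) in the 300 bases before the annotated start of each gene, in bases from the start on the x axis and 1 line a gene; purple is the ERSE with 10 bases between its parts and green the UPRE core. BIP3 has 2 purple bars, SHD, CRT1a and PDIL1-1 have bars of both colours, and 6 genes have none.

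Library totals ran from 893225 to 2857129 counts, and intervals below that rest on summed counts cover counting error only. LSU2, a gene deleted in the mutant, had 192 to 1202 counts in the 16 WT libraries and 2 to 25 in the 16 q-lsu-KO libraries, so no library went against its genotype label. In CPM per raw library total, the 5 shoot markers summed to 26055 to 39207 in shoots and 96.3 to 274 in roots. On the same scale the 6 root markers summed to 505 to 875 in roots and 0.492 to 3.5 in shoots. Libraries were sequenced in 4 pools, each of 1 tissue under 1 sulfur condition, so S deficiency and pool cannot be told apart, nor can tissue and pool, whereas genotypes were compared within a pool. In whole organs, more messenger per cell and more cells of a type that holds it cannot be told apart. The study calls the libraries biological replicates without stating separate plates, and p-values measure the spread between these libraries. BIP1 and BIP2, the closest pair, were 94.1% identical over the 186 bases that aligned in the last 500 bases of their transcripts and shared no run of 55 bases, the read length, there.

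BIP3 was high in roots with sulfate and in shoots without it, and near 0 in the reverse conditions. In WT roots under [nS] its levels were 13.4, 12.2, 17.7 and 18.4 CPM (replicates 1 to 4, on library sizes scaled by TMM, a factor that evens out composition), and in q-lsu-KO roots 22.6, 21.3, 33.3 and 13.2 CPM. Under [dS] they were 2.89, 0.459, 0 and 1.31 CPM in WT roots and 0, 0, 0.436 and 2.73 CPM in q-lsu-KO roots. Every [dS] root library lay below every [nS] root library. In shoots the order was the opposite. WT shoots held 4.52, 0, 0.91 and 0 CPM under [nS] and 5.41, 11.6, 10.8 and 8.39 CPM under [dS]. In q-lsu-KO shoots all 4 [nS] libraries were at 0, which over their summed TMM-scaled totals allows a level of up to 0.698 CPM (3 counts), and the [dS] libraries held 27.9, 8.04, 11.7 and 5.91 CPM. In both genotypes every [dS] shoot library lay above every [nS] shoot library, though WT replicate 1 of [nS], with 7 counts, came close.

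**Figure D2:**
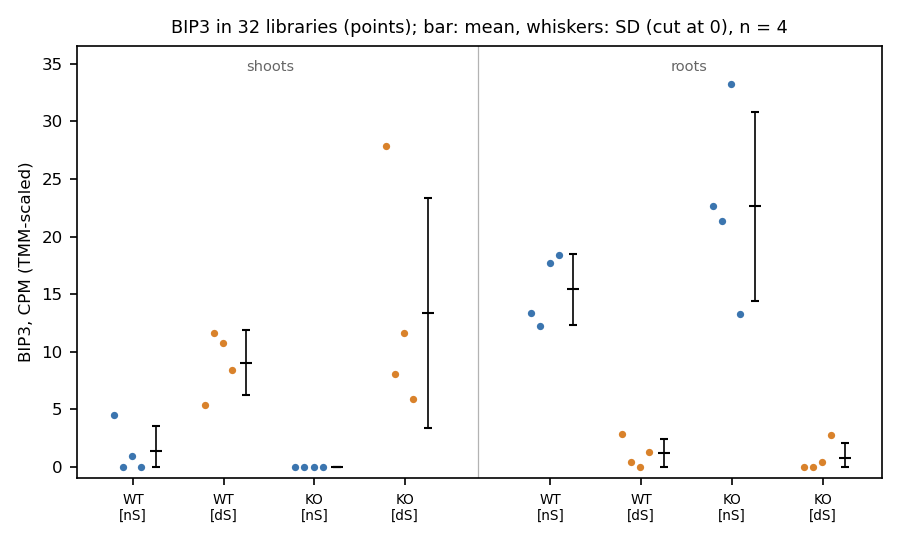
BIP3 level in CPM (TMM-scaled) on the y axis for each of the 32 libraries (points, blue [nS] and orange [dS]) by group on the x axis, with the mean and SD of 4 libraries beside them (KO stands for q-lsu-KO). Shoots without sulfate sit between 5.41 and 27.9 CPM and roots without sulfate at 2.89 CPM or less, while roots with sulfate sit between 12.2 and 33.3 CPM.

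Ordered by mean level, BIP3 stood first in q-lsu-KO roots under [nS] with 22.6 ± 8.23 CPM (SD, n = 4), followed by 15.4 ± 3.08 in WT roots under [nS], 13.4 ± 9.97 in q-lsu-KO shoots under [dS] and 9.06 ± 2.80 in WT shoots under [dS]. Then came WT shoots under [nS] with 1.36 ± 2.15, WT roots under [dS] with 1.17 ± 1.27, q-lsu-KO roots under [dS] with 0.791 ± 1.31 and q-lsu-KO shoots under [nS] with 0 in every library. Neighbours in this order overlapped in range, except that the lowest WT shoot library under [dS] (5.41 CPM) stayed above the highest under [nS] (4.52 CPM).

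In roots the fall of BIP3 under [dS] is the value that chose the group. Summed counts went from 127 to 10 in WT, a 13.8-fold lower level (95% exact interval 7.24 to 29.4), and from 113 to 5 in q-lsu-KO, 34.1-fold lower (14.2 to 107). These ratios are per TMM-scaled total, and they became 26.3 without [dS] replicate 1 in WT and 139 without [dS] replicate 4 in q-lsu-KO, which held 6 of the 10 and 4 of the 5 counts. The fitted log2 fold changes were -3.68 ± 0.49 (SE) and -4.94 ± 0.56. Since the group was chosen on this contrast, the counts that follow are no test and nothing is read from them: of the 10 genes BIP3 alone lay past both thresholds used in the other comparisons (adjusted p under 0.05 and a fold over 1.5) in each genotype, and 3.42% of the 15971 genes tested in WT roots and 3.38% in q-lsu-KO roots were past them on the lower side (6.82% and 6.15% on either side). The other 9 genes stayed between -0.42 and 0.13 on the log2 scale. ERDJ3B (-0.27 ± 0.08 in WT roots and -0.41 ± 0.09 in the mutant) and SDF2 (-0.20 ± 0.09 and -0.42 ± 0.10), which form a complex with BiP, had the lowest values in the mutant, and in WT roots ERDJ3B was followed by CRT1a (-0.21 ± 0.07). BIP1, the constitutive relative of BIP3, was at -0.05 ± 0.07 and -0.12 ± 0.08, and PDIL1-1 at 0.06 ± 0.07 and 0.03 ± 0.07.

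In WT shoots, PDIL1-1 rose under S deficiency, while the values of BIP3 and bZIP60 each missed a threshold. PDIL1-1 was at 105, 98.4, 106 and 109 CPM under [nS] and at 132, 177, 186 and 145 CPM under [dS]. The groups did not overlap, and the log2 fold change was 0.62 ± 0.13 (adjusted p = 6.0e-04, edgeR's quasi-likelihood test over 14593 genes). Unless another tool is named, adjusted p-values come from this test, taken over all genes tested in shoots, in roots or in both tissues. It was the 1 of 10 genes called, where 6.18% of all genes were called higher (11.4% in either direction). The fold was just past 1.5, and without replicate 2 or replicate 3 of [dS] it fell to 0.57 and 0.54 on the log2 scale, under the threshold, with adjusted p-values of 0.00252 and 0.00221. BIP3 had 8 summed counts under [nS] and 74 under [dS], a 6.23-fold ratio (95% exact interval 3.00 to 15.0), with an adjusted p of 0.063. Without [nS] replicate 1 the ratio was 35.7, with an interval from 6.21 to 1428 since 1 count remained. The adjusted p was 0.00371 by DESeq2, 4.1e-05 with no filter on low counts and 0.00873 without [nS] replicate 1, the library with 7 of the 8 counts, and each of these called it. BIP3 passed the filter on low counts in shoots through the [dS] groups, where it was high, so these calls are no support.

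bZIP60, the UPR factor itself, was at 35.5, 38, 26.4 and 46 CPM in WT shoots under [nS] and at 45.4, 57.7, 48.3 and 50.4 under [dS]. The ranges overlapped by 1 library, and the change of 0.45 ± 0.14 passed the p threshold (adjusted p = 0.0127) but not the fold. The remaining 7 genes lay between -0.03 (CRT1a) and 0.28 (ERDJ3B) on the log2 scale with adjusted p-values from 0.165 to 0.871.

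In q-lsu-KO shoots, 4 of the 10 genes rose under S deficiency (BIP3, PDIL1-1, SHD and bZIP60), where 6.62% of all genes were called higher (12.1% in either direction). BIP3 passed the filter on low counts in shoots through the [dS] groups, where it was high, so its call is no support, and 3 of the other 9 genes were called. The values of those 9 were all above 0, with a median log2 fold change of 0.46 against 0.00 over all genes tested, and in WT shoots their median was 0.19 against 0.02. The 9 varied together from library to library in shoots, so their signs are not independent. BIP3 went from 0 to 75 summed counts (adjusted p = 0.00942). With the 0 set at 3 counts over the group the ratio was 18.9, and the 95% exact interval started at 15.0. Replicate 1 of [dS] held 41 of the 75 counts, and without it that ratio was 11.6, with an interval from 8.93. PDIL1-1 went from 117, 83, 86 and 110 CPM to 217, 184, 169 and 145 CPM, a change of 0.86 ± 0.13 (adjusted p = 3.0e-05). The lowest [dS] library stayed above the highest [nS] library.

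SHD, the Hsp90-like chaperone, was at 239, 219, 213 and 211 CPM under [nS] and at 471, 329, 318 and 276 CPM under [dS] in q-lsu-KO shoots. The groups did not overlap, and the change was 0.67 ± 0.14 (adjusted p = 0.00314). Replicate 1 of [dS] carried the highest value, and without it the change was 0.48 with an adjusted p of 1.2e-04, below the fold threshold. bZIP60 rose from 49.5, 48.5, 56.5 and 46.3 CPM to 89.8, 122, 104 and 111 CPM, a change of 1.08 ± 0.13 (adjusted p = 1.9e-08). Its [dS] libraries all stood well above its [nS] libraries.

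Of the other members in q-lsu-KO shoots, ERDJ3B (0.57 ± 0.15, adjusted p = 0.00663), SDF2 (0.46 ± 0.13, adjusted p = 0.00746) and BIP1 (0.45 ± 0.14, adjusted p = 0.0335) passed the p threshold and not the fold. ERDJ3B went from 90.3, 70, 72 and 65.7 CPM to 131, 101, 110 and 102 CPM with no overlap, and it was called without q-lsu-KO [dS] replicate 2 (0.64) or 4 (0.60), without [nS] replicate 1 (0.67) and with library totals as the scale (0.64). BIP2 (0.45 ± 0.20, adjusted p = 0.143), CNX1 (0.36 ± 0.14, adjusted p = 0.0847) and CRT1a (0.23 ± 0.09, adjusted p = 0.0513) passed neither threshold. The shoot markers, genes of photosynthesis and photorespiration, moved with S deficiency as well. Under [nS] they summed, per raw library total, to 38400 to 39200 CPM in WT and 34700 to 37600 in q-lsu-KO. Under [dS] these markers summed to 27200 to 30700 and 26100 to 28800. Their part in the changes of the ER genes was not tested.

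**Figure D3:**
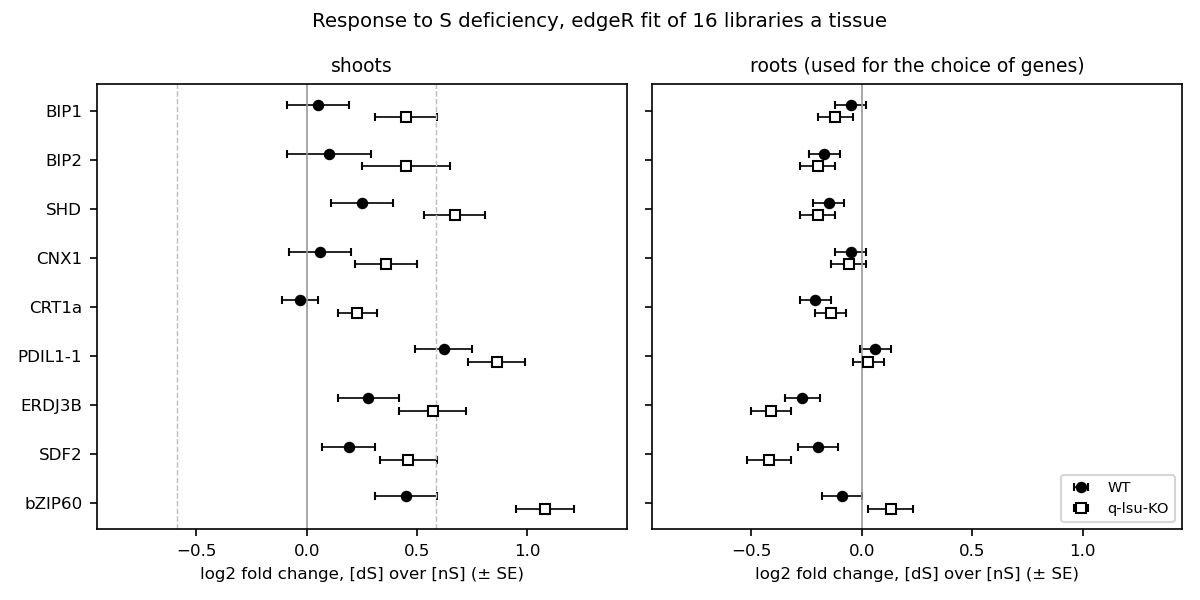
Log2 fold change of [dS] over [nS] with its SE on the x axis for the 9 genes other than BIP3 (filled circles WT, open squares q-lsu-KO), in shoots on the left with dashed lines at a fold of 1.5 and in roots on the right. In shoots the q-lsu-KO values run from 0.23 to 1.08 and each lies right of the WT value, and in roots the values of both genotypes run from -0.42 to 0.13.

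Between genotypes, bZIP60 was the 1 member that was called. In shoots under [dS] it was at 45.4 to 57.7 CPM in WT and at 89.8 to 122 CPM in q-lsu-KO, a difference of 1.07 ± 0.12 on the log2 scale (adjusted p = 3.0e-08). The groups were far apart, and 3.53% of all genes were called higher in this comparison. In shoots under [nS] the difference was 0.45 ± 0.15 (adjusted p = 0.0636), with 26.4 to 46 CPM in WT and 46.3 to 56.5 CPM in q-lsu-KO, ranges that abutted without overlap. None of the 10 genes was called there by edgeR (4.82% of all genes were) or by DESeq2, and bZIP60 was the 1 with an unadjusted p under 0.05. The other 9 lay below 0 under [nS] (ERDJ3B, at -0.03, above 0 when 1 of 3 libraries was left out), BIP1 (-0.30 ± 0.15, adjusted p = 0.288) and SHD (-0.25 ± 0.14, adjusted p = 0.401) with no overlap of libraries, and above 0 under [dS], from 0.10 (BIP1) to 0.53 (BIP3), with adjusted p-values from 0.34 to 0.798. When the first replicate of q-lsu-KO under [dS] was left out, 5 of these 9 were below 0 (BIP1 -0.04, BIP2 -0.03, BIP3 -0.17, CNX1 -0.02 and SHD -0.01).

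In roots no member differed by genotype past the thresholds in edgeR or DESeq2, under [nS] (0.163% of all genes called, 1 of the 10 with an unadjusted p under 0.05) or under [dS] (0.157%, 0 of 10 with an unadjusted p under 0.05). bZIP60 was the 1 with the unadjusted p, at 115, 98.6, 102 and 102 CPM in WT and 94.2, 79.3, 84 and 88 CPM in q-lsu-KO under [nS]. All 4 q-lsu-KO libraries lay below the WT libraries, with a difference of -0.25 ± 0.10 (adjusted p = 0.454). Under [dS] its root levels were 89.3 to 110 CPM in WT and 85.9 to 103 CPM in q-lsu-KO and overlapped.

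Whether S deficiency acted differently in the mutant was tested as the interaction of genotype and sulfur. In shoots no member passed (0.425% of all genes did) in edgeR or DESeq2, and 2 had an unadjusted p under 0.05, bZIP60 with 0.63 ± 0.19 (adjusted p = 0.251) and CRT1a with 0.26 ± 0.12 (adjusted p = 0.776). All 10 interaction values in shoots were above 0, with a median of 0.33 against -0.01 over all genes, and 0.31 for the 9 without BIP3. These signs are not independent, since the 9 varied together from library to library in shoots. Replicate 1 of q-lsu-KO under [dS] was the highest of its group for 8 of the 9. A difference between the responses of the 2 genotypes was not shown for any member after adjustment. In roots no member passed in either tool (0.025% of all genes did), none had an unadjusted p under 0.05, and the median was -0.04.

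**Figure D4:**
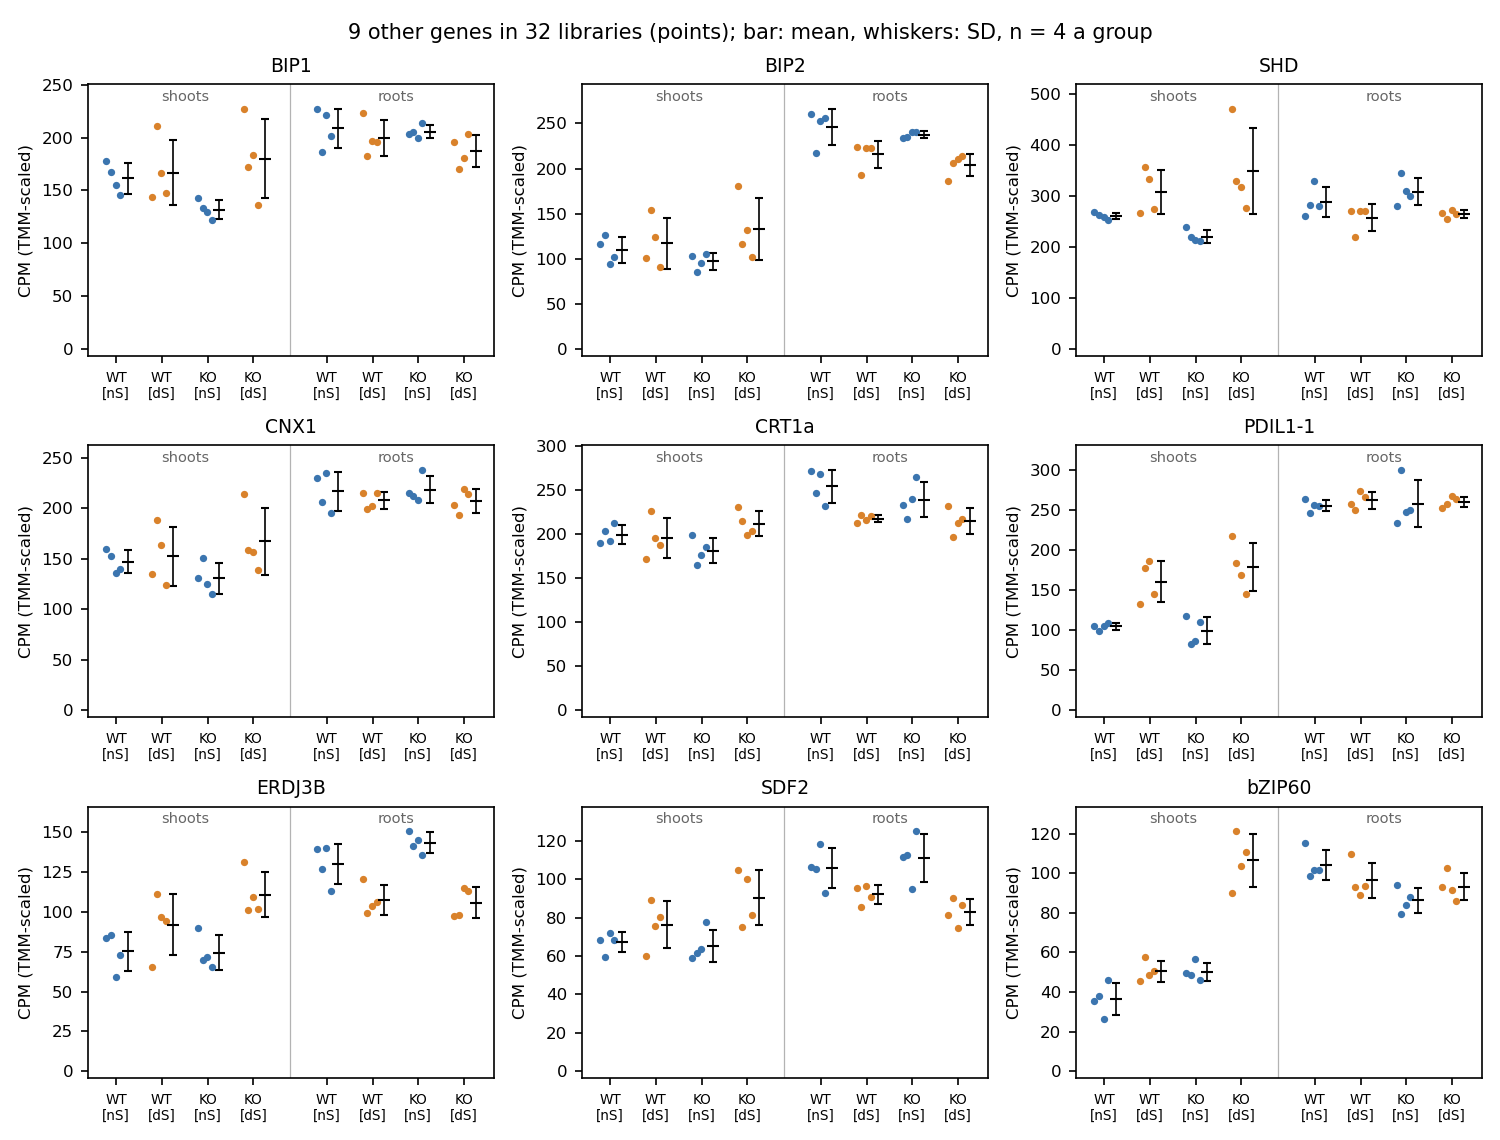
Levels in CPM (TMM-scaled, y axis from 0) of the 9 other genes in all 32 libraries by group (points, blue [nS] and orange [dS]), with the mean and SD of 4 libraries beside them (KO stands for q-lsu-KO). The shoot panels of bZIP60 and PDIL1-1 show the widest steps, and replicate 1 of q-lsu-KO shoots under [dS] is the highest point of its group for 8 of the 9 genes.

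With sulfate, most of the ER genes were lower in shoots than in roots. Leaving out BIP3, 5 of the other 9 genes were called lower in WT (BIP2, PDIL1-1, SDF2, ERDJ3B and bZIP60), where 31.3% of 17918 genes were, and 7 in q-lsu-KO, those 5 with BIP1 and CNX1, where 30.3% were. PDIL1-1 was at 98.4 to 109 CPM in WT shoots and 246 to 264 CPM in WT roots, a difference of -1.29 ± 0.10 (adjusted p = 3.0e-18), and -1.38 ± 0.11 in q-lsu-KO. bZIP60 differed by -1.49 ± 0.12 in WT and by -0.77 ± 0.13 in the mutant, and BIP2 by -1.16 ± 0.13 and -1.29 ± 0.14. BIP1, which encodes a protein nearly identical to BIP2, differed by -0.37 ± 0.10 and -0.64 ± 0.11, and SHD by -0.15 ± 0.11 (adjusted p = 0.223) and -0.48 ± 0.11 (adjusted p = 3.2e-04). The summed counts of BIP3, 127 in WT roots against 8 in WT shoots, gave a 10.6-fold higher level in roots (95% exact interval 5.22 to 25.1). In q-lsu-KO, with the 0 counts of shoots set at 3, the ratio was 31.1, and its interval started at 24.8. Per raw total the interval in WT ran from 8.68 to 41.7, and in q-lsu-KO the ratio was 52.5 with an interval from 42.0. This comparison uses the [nS] root libraries that also enter the value by which the group was chosen, so that BIP3 is given as a description. The scaling of the libraries changed these counts: the median gene was at -0.10 in WT and -0.09 in q-lsu-KO with TMM and at -0.83 and -0.85 with raw library totals, where all 10 genes were called lower in both genotypes. The direction was the same for all 10 under TMM, RLE, upper-quartile and raw scaling.

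Within groups, the members other than BIP3 varied together from library to library in shoots. After group means were removed, the median correlation (Pearson's r) over their 36 pairs was 0.56 across 16 shoot libraries, and 32 pairs were positive, while the median over all pairs of 4780 genes was 0.00. In roots it was 0.25 with 31 pairs positive. Of all pairs of genes, 3.17% lay above the members' median in shoots and 22% above it in roots. The points share libraries, so these are descriptions. Replicate 2 of WT shoots under [dS] was the highest of its group for 8 of the 9 genes, and replicate 1 of q-lsu-KO shoots under [dS] likewise for 8 of 9, with totals of 2316770 counts, the lowest of its group, and 1855635 counts, inside the range of its group.

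The genes most like BIP3 differed between tissues. Over 16 root libraries the 5 highest correlations of log2 CPM, r from 0.95 to 0.97, were with AT5G60530, AT1G11670, AT1G30720, bHLH38 (AT3G56970), a regulator of iron uptake, and CYP79F2 (AT1G16400), an enzyme of aliphatic glucosinolate synthesis. The last pair have close relatives (bHLH39 and CYP79F1), with which they may share reads. bHLH38 had mean levels of 34.5 CPM in WT and 35.3 CPM in q-lsu-KO roots under [nS] and 0.896 and 0.558 CPM under [dS]. Over 16 shoot libraries the 5, again with r from 0.95 to 0.97, were AT5G10760, BGL2 (AT3G57260), the pathogenesis-related glucanase PR2, AT5G55450, the wall-associated kinase WAK1 (AT1G21250) and AT1G76960. BGL2 had mean levels of 11.8 CPM in WT and 1.56 CPM in q-lsu-KO shoots under [nS] and 221 and 231 CPM under [dS]. Among the members, ERDJ3B had the highest r with BIP3 in roots (0.89) and PDIL1-1 in shoots (0.90), while in roots PDIL1-1 had -0.23. These values describe libraries that share group means, and the root values rest on the contrast that chose the group.

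Other genes of the pathway were taken as lists by function, here under S deficiency in shoots. Among disulfide isomerases and ER oxidases, 1 of 14 was called higher in WT and 4 of 14 in q-lsu-KO, beside 6.18% and 6.62% of all genes tested. ERO1, the oxidase that recharges the isomerases, was the largest in both (1.78 ± 0.39, adjusted p = 5.2e-04, and 2.00 ± 0.36, adjusted p = 3.9e-05), from mean levels of 2.54 to 8.96 CPM in WT and 3.76 to 16.5 CPM in q-lsu-KO. ERO1 passed the filter on low counts in shoots through the [dS] groups, where it was high, so its calls are no support. It was the single call of this list in WT. PDIL1-3 (1.28 ± 0.24) and PDIL2-2 (1.03 ± 0.27) came next in q-lsu-KO. In the calnexin-calreticulin cycle and N-glycosylation, 1 of 12 was higher and 1 lower in WT and 1 was higher in q-lsu-KO. CRT3, the plant-specific calreticulin that acts in quality control of receptor kinases, rose by 1.13 ± 0.20 (adjusted p = 6.3e-04) and 1.43 ± 0.22 (adjusted p = 1.7e-04), and CRT1b, the close relative of CRT1a, fell by 0.61 ± 0.10 in WT. Without replicate 4 of WT [dS] (-0.54), without replicate 3 of WT [nS] (-0.57) and with raw totals (-0.54), CRT1b fell short of the fold threshold.

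Among UPR sensors, proteases and transcription factors, 1 of 10 tested was called higher in WT and 2 were in the mutant. Like the single calls of the lists that follow, these shares are to be read beside 6.18% and 6.62% of all genes. The gene in WT was NAC062 (0.81 ± 0.25, adjusted p = 0.0219), and its call was lost without [dS] replicate 4, [nS] replicate 1 or [nS] replicate 2 (adjusted p from 0.0644 to 0.0791). IRE1A, which splices bZIP60, rose by 0.75 ± 0.22 (adjusted p = 0.0088) and BI-1, a cell death suppressor of the ER membrane, by 0.64 ± 0.10 (adjusted p = 6.0e-06) in q-lsu-KO. The IRE1A call was lost without [dS] replicate 4 (adjusted p = 0.0657) or [nS] replicate 3 (adjusted p = 0.0559), and the BI-1 call without [dS] replicate 1 (0.54 on the log2 scale). In ER-associated degradation 1 of 12 was called in WT, UBC32 (0.70 ± 0.16), and none in q-lsu-KO by edgeR or DESeq2, with 1 at an unadjusted p under 0.05. Among partners of ER Hsp70, HSP70-17 was the 1 of 4 tested that was called, in q-lsu-KO (0.86 ± 0.16), and in WT edgeR and DESeq2 called none, 1 having an unadjusted p under 0.05. In translocon and ER export, SEC61B2 was the 1 of 12 tested that was called, 2.82-fold higher in WT (adjusted p = 0.0258) and 3.9-fold in q-lsu-KO (adjusted p = 0.0074). The WT call of SEC61B2 was lost in 5 of the 8 fits that left out a library (adjusted p from 0.063 to 0.0826) and with the replicate number as a block (0.0659).

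NAC062, a membrane-tethered transcription factor of the UPR, was the 1 listed gene other than bZIP60 that differed between genotypes, higher in q-lsu-KO shoots under [nS] (1.67 ± 0.25, adjusted p = 1.2e-04) and [dS] (1.42 ± 0.19, adjusted p = 4.9e-05). Its shoot levels were 9.04 to 24.7 CPM in WT and 43.1 to 55.5 CPM in q-lsu-KO under [nS]. NAC062 (AT3G49530, TAIR10.1 chromosome 3, 18362443 to 18364959) lies 7.45 kb from LSU3 and 9.95 kb from LSU1, which are deleted in the mutant, and the part of that deletion in its level was not tested. In roots none of the 73 listed ER and heat shock genes tested was called between genotypes by edgeR or DESeq2, although 5 of them in the sulfate-fed roots and 2 in the deficient ones had an unadjusted p under 0.05.

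In roots the response of the listed genes to S deficiency is again a description. ERDJ3A, an ER J-domain protein known from pollen tube growth, fell with BIP3, from a mean of 13.8 to 3.73 CPM in WT and from 15.8 to 3.35 CPM in q-lsu-KO. TIN1, a gene induced by the ER stressor tunicamycin, was at 6.89 and 2.03 CPM in WT and 7.02 and 2.54 CPM in q-lsu-KO. PDIL2-2 was at 42.2 and 25.4 CPM in WT roots and 39.7 and 26.1 CPM in q-lsu-KO roots, lower under [dS] where in q-lsu-KO shoots it rose. HRD1A, an E3 ligase of ER-associated degradation, went the other way in WT roots, with means of 9.7 CPM under [nS] and 15.1 CPM under [dS], and it was at 10.6 and 10.9 CPM in q-lsu-KO roots. In WT roots HRD1A was past both thresholds in edgeR, but not in DESeq2, with a filter of mean CPM at least 5 or with a replicate block. Nor was it past them without [dS] replicate 1, 2 or 4 or without [nS] replicate 2, 3 or 4. The median of the translocon and export list was -0.31 in WT and -0.25 in the mutant on the log2 scale. TIN1 was past both thresholds on the lower side in WT, and SEC61B2, UTR1 and TIN1 were in q-lsu-KO, beside 3.42% and 3.38% of all genes. SEC61B2, higher under [dS] in shoots of both genotypes, was thus lower in q-lsu-KO roots. UTR1 was not past the thresholds by DESeq2, nor without q-lsu-KO [dS] replicate 1 or [nS] replicate 1. TIN1 was not past them in q-lsu-KO without [nS] replicate 4. The median of the disulfide isomerase list in roots was -0.16 in WT and -0.09 in q-lsu-KO on the log2 scale, and that of the UPR sensors -0.02 and 0.04, against 0.01 over all genes in both.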

How the data were processed

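Whole-number counts per gene from 32 libraries, 1 file a library, were used as deposited. The submitters' processing notes name STAR 2.7.8a, DESeq2 and the TAIR10 build, and for the counting program, the annotation and any collapse of molecular identifiers the entry is: not given in the sources used here. The count values the authors deposited were not normalized. Genes passing filterByExpr (edgeR 4.0.16, minimum count 10) were fitted with TMM scaling by edgeR's quasi-likelihood F-test, with 1 mean a group, over the 16 libraries of a tissue, or over all 32 for tissue contrasts. Calls needed a fold over 1.5 and a p under 0.05 after Benjamini-Hochberg adjustment over all genes tested. The procedure was tested on simulated data. The genes changed there were well expressed and their folds larger than 1.5, so genes with few counts, such as BIP3, were not covered.

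CPM are counts per 1000000 on TMM-scaled totals, except the summed levels of tissue markers and of cytosolic chaperones, which are per raw library total. Exact intervals are conditional binomial at 95%. Each count was also made by DESeq2 1.42.0, with scaling by RLE or the upper quartile, other filters, a replicate block and each library left out, and with raw totals and the 10-base ERSE added after the data had been seen. Replicate numbers were shared between groups, but in no comparison did all 4 same-numbered pairs of libraries correlate above 0.1, so no pairing was used.

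The members and gene lists were chosen with earlier results of these data known. Every member was named. Up to 3 genes a list and comparison, those called with the largest fold changes, were candidates for naming. Some of these are not named, among them those of the tissue comparisons. The 5 genes most like BIP3 were those with the highest Pearson's r of log2 CPM in a tissue.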

Additional observations from a re-analysis of the deposited data

Results flagged for a closer look

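Within groups of 4 libraries, 1 library stood apart from the other 3 in 3 of the 79 sets of gene and group examined, where chance alone gives about 1 in 20 (Dixon's test at the 95% level). In WT roots under [dS], replicate 2 was low for BIP2 (193 CPM against 223 to 224) and for SHD (219 CPM against 270 to 271). In q-lsu-KO roots under [dS], replicate 4 was high for BIP3 (2.73 CPM against 0 to 0.436), a value that rests on 4 counts.

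Pairs of effects were examined as well, 80 in all. In the pairs named here the compared groups did not overlap in shoots or in roots, and the directions were opposite. The share of all genes with such a pattern is not given, and the difference between the tissues was not tested. BIP3 under [dS] was 6.23-fold higher in WT shoots and 13.8-fold lower in WT roots, and at least 18.9-fold higher in q-lsu-KO shoots and 34.1-fold lower in q-lsu-KO roots. In q-lsu-KO, ERDJ3B had log2 fold changes under [dS] of 0.57 in shoots and -0.41 in roots, and SHD of 0.67 and -0.20. The root values of these 3 genes belong to the contrast by which the group was chosen. Between genotypes under [nS], bZIP60 had a log2 difference of 0.45 in shoots and -0.25 in roots, neither past the threshold after adjustment in edgeR.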

How the results depend on the processing

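For S deficiency in WT shoots the number of members called went from 1 to 2 with DESeq2, to 2 with no filter on low counts and to 2 with the adjusted p alone and no fold threshold. The gene added by DESeq2 and with no filter was BIP3, whose calls in shoots are no support. With the adjusted p alone the number of members called went from 4 to 7 in q-lsu-KO shoots and from 1 to 3 in roots of either genotype, and for tissue in WT from 6 to 10 with raw library totals. With 1 library left out, the count ran from 0 to 2 in WT shoots, from 3 to 5 in q-lsu-KO shoots, from 6 to 7 for tissue in WT and at 8 for tissue in q-lsu-KO, stayed at 1 in roots of either genotype and for genotype in shoots under [dS], and was 0 in the other 5 comparisons. CCAAT and CACG matched 0 members with 9 bases between them and 4 with 10, a form chosen after the data had been seen, and which of these spellings marks a working element was not tested. No fold change past the threshold changed direction. Of the values not past it, 5 changed sign under another scaling (each at most 0.03 in size with TMM). With 1 library left out 37 changed sign, and these were up to 0.76 in size in the main fit. Under the settings that kept all libraries, 1822 of 1858 values kept their side of the threshold. With 1 library left out, 1796 of 1832 did.

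The replicate block gave the same number of members called in every comparison (1 in WT shoots and 4 in q-lsu-KO shoots under S deficiency). At most 2 of the 4 pairs of same-numbered libraries correlated above 0.1 in any comparison, so the numbers were not taken as pairs. Over all genes, calls with the adjusted p alone went from 1666 to 3395 and from 1760 to 3231 for S deficiency in shoots (WT, q-lsu-KO), from 1090 to 2156 and from 982 to 1858 in roots, and for genotype in roots from 26 to 42 and from 25 to 52 ([nS], [dS]). With no filter the last pair became 55 and 43 and the root interaction went from 4 to 22. That interaction gave 7 with the block and 1 in the model of all 32 libraries. Leaving out 1 library moved the count for genotype in shoots under [dS] from 608 to 381 (WT replicate 1) or 379 (q-lsu-KO replicate 4), under [nS] from 704 to 464 (q-lsu-KO replicate 3), in roots under [nS] to 60 or 17 (q-lsu-KO replicates 1 and 3) and under [dS] to 46 (q-lsu-KO replicate 1), and the root interaction to between 2 and 10.

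Raw totals moved the share of called genes that were higher from 54.1% to 69% in WT shoots and from 54.9% to 69.4% in q-lsu-KO shoots under S deficiency, and upper-quartile scaling moved it from 69.6% to 59% and from 84.7% to 73.9% for genotype in shoots. For tissue it was 47.2% and 48.4% with TMM, 39.1% and 38.5% with upper-quartile scaling and 24.4% and 25% with raw totals. BIP3 sets the limit of depth here, with at most 10 summed counts in 4 groups.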

Other observations

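Chaperones of the cytosol were listed beside those of the ER. In roots under [dS], 4 of the 8 tested were called lower in each genotype, beside 3.42% (WT) and 3.38% (q-lsu-KO) of all genes, a description, since this contrast chose the ER group. By DESeq2 the count was 4 in WT and 5 in q-lsu-KO. The median log2 fold change of the list was -0.93 in WT and -0.74 in q-lsu-KO, against 0.01 over all genes. In WT 6 of the 8 lay below 0 and 2 above, and in q-lsu-KO 7 lay below and 1 above. HSC70-1 was at 0.30 ± 0.06 and 0.28 ± 0.06 on the log2 scale. The summed level of the list, per raw library total, was 1480 to 1540 CPM under [nS] and 1520 to 1790 CPM under [dS] in WT. In q-lsu-KO the sums were 1400 to 1660 and 1620 to 1780 CPM. The small heat shock gene HSP17.6A was at a mean of 8.14 CPM under [nS] and 1.02 CPM under [dS] in WT roots and at 7.70 and 0.849 CPM in q-lsu-KO roots. HSP17.4 was at 13.6 and 2.38 CPM in WT and 11.8 and 2.32 CPM in q-lsu-KO, and the disaggregase HSP101 at 14.5 and 6.10 CPM in WT and 14.6 and 5.95 CPM in q-lsu-KO. Without [nS] replicate 4, HSP101 was not past both thresholds in q-lsu-KO roots. HSP17.6A and HSP17.4 passed the filter on low counts in roots through the [nS] groups, where they were high, so their calls are no support. HSP90-1, the inducible cytosolic Hsp90, was at 38.5 and 15.8 CPM in WT roots and 30.5 and 18.1 CPM in q-lsu-KO roots. In q-lsu-KO shoots HSP90-1 rose under [dS] by 2.04 ± 0.45 on the log2 scale (adjusted p = 5.5e-04 in edgeR). It was the 1 called of 4 tested among 12 listed, beside 6.62% of all genes called higher. Of those 4, 2 lay above 0 and 2 below, with a median of 0.16 against 0.00 over all genes tested. In WT shoots none of the 4 was called by edgeR or DESeq2, and 1 had an unadjusted p under 0.05.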
